A study of Drosophila melanogaster with 4 samples.

Results

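The 10 genes described here encode the G protein–coupled receptors through which the fly brain responds to dopamine, serotonin and, in one case, octopamine. They were chosen by name from the 13608 genes of the count table and number 4 dopamine receptors (*Dop1R1*, *Dop1R2*, *Dop2R*, *DopEcR*), 5 serotonin receptors (*5-HT1A*, *5-HT1B*, *5-HT2A*, *5-HT2B*, *5-HT7*) and 1 octopamine receptor (*Oamb*). Their mRNA was measured by 3′-seq in the heads of untreated adult *Drosophila melanogaster* of wild-type genotype, kept at 25 °C, in 4 replicates of 1 condition. The series describes the replicates as independent wild-type lines, and the sample labels give only a replicate number. The paper gives *w¹¹¹⁸* as the genotype of the flies it calls wild type. Neither the age nor the sex of the flies is given in the labels. The RNA came from a centrifuged lysate of UV-cross-linked powder of whole heads, so that brain, eye, fat body and muscle were measured together. RNA that was spun down with the debris would be missing. Without a second condition there is no contrast, and the comparisons below are between receptors within the same heads and between replicates.

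Dopamine, serotonin and octopamine are monoamines that are released by small sets of neurons and act slowly, through receptors that signal by way of G proteins. In flies they set arousal, sleep, feeding, aggression and the reinforcement of memory. The receptors differ in what they do inside the cell. D1-like dopamine receptors and 5-HT7 raise cyclic AMP (cAMP), Dop2R and the 5-HT1 receptors lower it, and the 5-HT2 receptors and Oamb act mainly through release of calcium from internal stores. In the mushroom body, the memory center of the insect brain, Dop1R1 is needed to form an odor memory, whereas Dop1R2 has been linked to forgetting.

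Counts on genes summed to between 8753359 and 13434565 per replicate, and levels are given as counts per 1000000 counts on genes (CPM). Because a 3′-seq read starts at the poly(A) tail, a transcript yields about the same number of reads whatever its length, and levels can be compared between genes. This holds only as far as reads do not start at A-rich stretches inside a transcript. The paper removed such sites when it called poly(A) sites. Whether the gene counts were filtered in this way is not known here. Genes of neurons and of photoreceptors were high in all replicates, at 2894 to 5003 CPM for 7 neuronal genes and 29212 to 39403 CPM for 8 photoreceptor genes. Genes of 2 tissues outside the head were unequal between replicates. All 6 genes of the male accessory gland and all 7 of the midgut were highest in replicate 1, where they summed to 532 and 697 CPM, against 8.09 to 138 CPM and 76.3 to 136 CPM in the others. In each of these lists 2 genes were at 0 in some replicate. In bulk tissue, fewer cells that express a receptor and less receptor RNA per cell cannot be told apart.

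All 10 receptors had counts in every replicate. Of the 10, 9 had at least 10 counts in each, whereas 57.0% of all 13608 genes did. The exception was *Dop2R*, with 4 counts in replicate 4. By mean level the order was *DopEcR*, *Dop1R1*, *5-HT1B*, *5-HT2A*, *5-HT1A*, *Dop1R2*, *Oamb*, *5-HT2B*, *5-HT7* and *Dop2R*. The levels ran from 187 CPM to 3.16 CPM. For comparison, the median mean level was 7.01 CPM over all genes and 25.4 CPM over the 7754 genes that reached 10 counts in each replicate. Above the first median lay 8 of the 10 receptors and above the second lay 4.

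**Figure D1:**
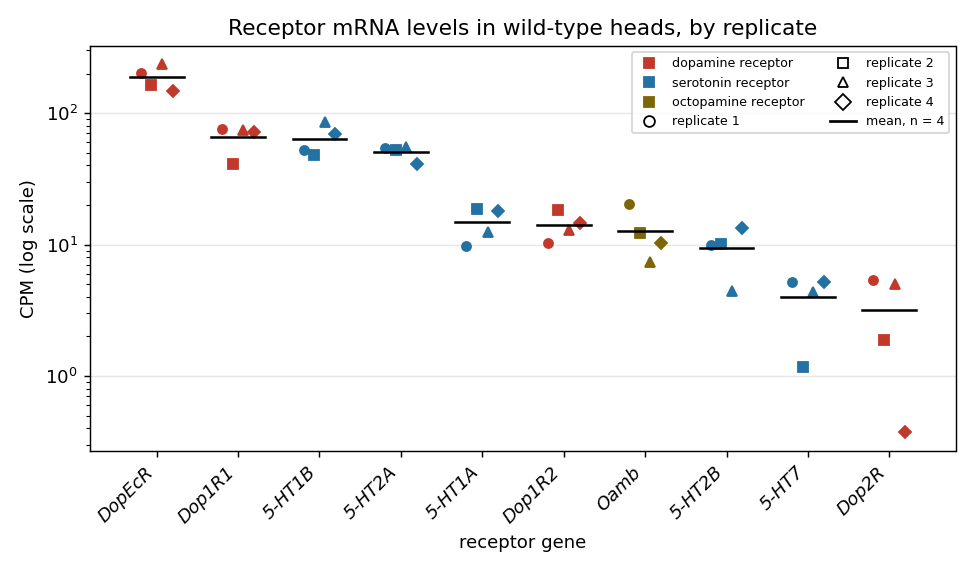
Level of each of the 10 receptor genes in CPM on a log scale, with 1 point per replicate and a bar for the mean of 4 replicates. *DopEcR* lies above all others in each replicate, *Dop1R1*, *5-HT1B* and *5-HT2A* lie between 40.9 and 85.8 CPM, and the lowest single value is the 0.375 CPM of *Dop2R* in replicate 4.

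The most abundant of the 10 was *DopEcR*, whose product is a membrane receptor for both dopamine and ecdysteroids. It had 203, 162, 235 and 147 CPM in replicates 1 to 4, a mean of 187 ± 39.8 CPM (SD, n = 4). Its lowest value was above the highest value of any other receptor of the 10. *DopEcR* ranked 808 among all genes of the table, and it alone took 43.7 ± 4.19% (SD, n = 4) of the summed counts of the 10 receptors. Within a replicate its counts exceeded those of *Dop1R1*, the next in order, by 2.04-fold to 3.97-fold, with a mean log2 ratio of 1.53 ± 0.40 (SD, n = 4).

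*Dop1R1*, the D1-like receptor of odor learning, had 75.8, 40.9, 74.4 and 72.1 CPM in replicates 1 to 4, with a mean of 65.8 ± 16.7 CPM (SD, n = 4). Replicate 2 was low and the other 3 lay close together. The distance depended on the scaling. With edgeR's TMM factors the values were 67.1, 43.0, 85.4 and 67.4 CPM, with replicate 2 still the lowest and the other 3 farther apart. *Dop1R2*, the second D1-like receptor, had 10.3, 18.4, 13.0 and 14.7 CPM, a mean of 14.1 ± 3.38 CPM (SD, n = 4). In contrast to *Dop1R1*, it was highest in replicate 2.

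*Dop2R*, the D2-like receptor, was the lowest of the 10 and the most uneven. It had 72, 21, 44 and 4 counts in replicates 1 to 4, or 5.36, 1.89, 5.03 and 0.375 CPM, with a mean of 3.16 ± 2.43 CPM (SD, n = 4). From the other replicates 43.7 counts were predicted in replicate 4, and the 95% Wilson interval of the 4 counts was 0.146 to 0.963 CPM. Replicates 1 and 3 were high, and replicates 2 and 4 were low. Without replicate 4 the mean was 4.09 CPM.

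Among the serotonin receptors, *5-HT1B* and *5-HT2A* stood well above the rest. *5-HT1B*, which lowers cAMP, had 52.3, 48.4, 85.8 and 69.0 CPM in replicates 1 to 4, a mean of 63.9 ± 17.1 CPM (SD, n = 4), and was highest in replicate 3. *5-HT2A*, which signals through calcium, had 54.3, 52.5, 55.5 and 40.9 CPM, a mean of 50.8 ± 6.71 CPM (SD, n = 4). It varied least of the 10 under scaling by library totals, with a coefficient of variation of 13.2%.

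The remaining serotonin receptors were lower. *5-HT1A*, which like *5-HT1B* lowers cAMP, had 9.75, 18.8, 12.5 and 18.1 CPM in replicates 1 to 4, a mean of 14.8 ± 4.38 CPM (SD, n = 4). *5-HT2B*, the second receptor that signals through calcium, had 9.90, 10.1, 4.46 and 13.3 CPM, a mean of 9.43 ± 3.67 CPM (SD, n = 4), and was low in replicate 3. *5-HT7*, which raises cAMP, had 70, 13, 38 and 55 counts, or 5.21, 1.17, 4.34 and 5.15 CPM, a mean of 3.97 ± 1.91 CPM (SD, n = 4). Its value in replicate 2 was the low one, with a 95% Wilson interval of 0.683 to 2.0 CPM, and without that replicate the mean was 4.90 CPM.

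*Oamb* encodes the octopamine receptor of the mushroom body, which resembles vertebrate α1-adrenergic receptors and is also needed in the oviduct for ovulation. It had 20.5, 12.3, 7.31 and 10.3 CPM in replicates 1 to 4, a mean of 12.6 ± 5.64 CPM (SD, n = 4). Replicate 1, in which genes of the accessory gland and the midgut were raised as described above, was also the highest for *Oamb*. The same replicate was the highest for *Dop1R1*, *Dop2R* and *5-HT7*. No list of oviduct genes was examined. The mean of *Oamb* without replicate 1 was 9.98 CPM. The part of other tissues in the value of replicate 1 was not tested.

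Neighbours in the order of mean level were compared within each replicate. A pair was counted as ordered where the higher gene had more counts in all 4 replicates and the mean log2 ratio exceeded its SD. Of 9 neighbouring pairs, 3 were ordered. These were the steps from *DopEcR* to *Dop1R1*, from *5-HT2A* to *5-HT1A* and from *5-HT2B* to *5-HT7*. The second had a ratio of 2.26 to 5.56 within a replicate and a mean log2 ratio of 1.82 ± 0.60 (SD, n = 4). The third rested on a thin margin, with 39 against 38 counts in replicate 3 and a mean log2 ratio of 1.34 ± 1.27 (SD, n = 4). It was no longer ordered without replicate 1, at 1.49 ± 1.51, or without replicate 4, at 1.34 ± 1.55 (SD, n = 3 each). A two-sided exact sign-flip permutation test cannot go below p = 0.13 with 4 replicates, and it gave this value for the 3 ordered pairs, with a Benjamini-Hochberg adjusted p of 0.375 over the 9 pairs. The neighbours and their direction were taken from these same replicates, so the test is given as a description.

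The remaining neighbours did not differ beyond their spread. *Dop1R1*, *5-HT1B* and *5-HT2A* formed a group in which the order changed between replicates, with *Dop1R1* over *5-HT1B* ranging from 0.846 to 1.45 and *5-HT1B* over *5-HT2A* from 0.921 to 1.69. *5-HT1A*, *Dop1R2*, *Oamb* and *5-HT2B* formed a second group in which neighbours changed order. Within it, *Dop1R2* had more counts than *5-HT2B* in all 4 replicates. *5-HT1A* and *Dop1R2* were nearly equal throughout, with ratios of 0.942 to 1.23. At the bottom, *5-HT7* exceeded *Dop2R* in 1 of 4 replicates only, by 13.8-fold in replicate 4. The lowest value of the upper group was 40.9 CPM and the highest of the second was 20.5 CPM. The groups, which were drawn from these same values, did not overlap.

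Each of the 3 receptor subfamilies with a pair of genes held a high and a low member. A ratio of counts within a replicate does not depend on how libraries are scaled. *Dop1R1* exceeded *Dop1R2* by 7.32-fold, 2.22-fold, 5.71-fold and 4.90-fold in replicates 1 to 4, with a geometric mean of 4.61. *5-HT1B* exceeded *5-HT1A* by 5.37-fold, 2.57-fold, 6.89-fold and 3.82-fold, with a geometric mean of 4.35. *5-HT2A* exceeded *5-HT2B* by 5.48-fold, 5.21-fold, 12.5-fold and 3.08-fold, with a geometric mean of 5.72. In all 3 pairs the same gene was higher in 4 of 4 replicates, and the mean log2 ratios of 2.20 ± 0.74, 2.12 ± 0.61 and 2.52 ± 0.83 (SD, n = 4) were each larger than their SD. The pairs were picked after the levels had been seen, and the ratios are given as a description.

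**Figure D2:**
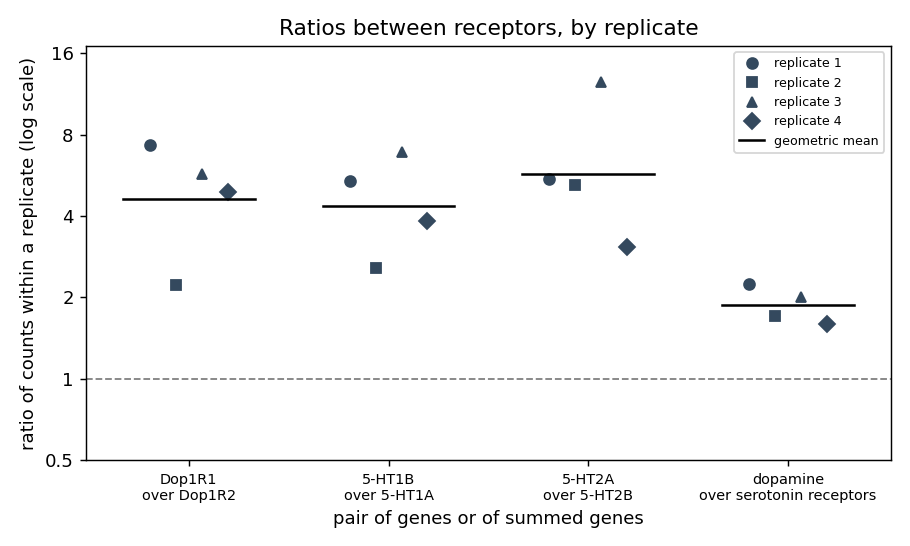
Ratio of counts within each replicate, on a log scale, for the 3 subfamily pairs and for the summed dopamine over the summed serotonin receptors. Points are replicates, bars are geometric means and the dashed line marks equal counts. All points lie above the line, and the pairs of single genes range from 2.22 to 12.5.

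By transmitter, the 4 dopamine receptors together had 295, 224, 327 and 235 CPM in replicates 1 to 4, a mean of 270 ± 49.4 CPM (SD, n = 4). The 5 serotonin receptors together had 131, 131, 163 and 146 CPM, a mean of 143 ± 15.0 CPM (SD, n = 4). Dopamine receptors were the higher group in 4 of 4 replicates, by 1.60-fold to 2.24-fold with a geometric mean of 1.87 (exact sign-flip permutation test, two-sided, p = 0.13, the smallest possible with n = 4). This direction rested on 1 gene. Without *DopEcR*, the dopamine receptors had 0.468 to 0.696 times the counts of the serotonin receptors, lower in 4 of 4 replicates, with a geometric mean of 0.576. By second messenger, the receptors that lower cAMP, *Dop2R*, *5-HT1A* and *5-HT1B*, summed to 81.8 ± 16.9 CPM (SD, n = 4). *Dop1R1*, *Dop1R2* and *5-HT7*, which raise cAMP, summed to 83.9 ± 15.6 CPM, and the 5-HT2 receptors to 60.2 ± 4.37 CPM (SD, n = 4 for both). *DopEcR*, the most abundant receptor at 187 CPM, and *Oamb* were placed in none of these sums. With *DopEcR* left out, the first and second sums differed by less than their spread. The second was 69.8 ± 18.5 CPM (SD, n = 4) without *Dop1R2*. The comparison of these sums thus depends on how the receptors were assigned. Most of each sum came from its single abundant member.

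The 10 receptors had no replicate in common in which they were high. They were highest in replicate 1 in 4 cases (*Dop1R1*, *Dop2R*, *5-HT7*, *Oamb*), in replicate 2 in 2 cases (*Dop1R2*, *5-HT1A*), in replicate 3 in 3 cases (*DopEcR*, *5-HT1B*, *5-HT2A*) and in replicate 4 in 1 case (*5-HT2B*). Their summed level was 447, 367, 497 and 391 CPM, a mean of 426 ± 58.4 CPM (SD, n = 4). Replicate 3, the highest, was also the highest for the neuronal genes, at 5003 CPM against 2894 to 3501 CPM, and 4 of the 7 were highest there. One gene, *para*, which encodes the voltage-gated sodium channel, carried much of this difference, and without it the other 6 summed to 2894, 2531, 3619 and 2637 CPM. The place of replicate 3 for the receptors depended on the scaling. Set against the counts on the neuronal genes instead of all genes, the receptor sum was 505, 383, 364 and 495 on the same scale, so that replicate 3 went from the highest to the lowest. With *para* left out of the denominator the sum was 451, 423, 401 and 433, again lowest in replicate 3 but with a coefficient of variation of 4.84% instead of 16.8%. The part of neuronal content in the spread of the receptors was not tested.

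The spread between replicates beyond counting noise was estimated as the biological coefficient of variation with edgeR. The method draws the value of each gene toward the trend of all genes at its level. For the 9 receptors that reached 10 counts in each replicate it gave 0.315 for *5-HT2A* to 0.510 for *5-HT7*, with a median of 0.386. The plain coefficient of variation of *5-HT2A* in CPM was lower, at 13.2%. Over all 7754 such genes the median was 0.376. Since the receptor values are partly drawn from other genes, their closeness to this median says little about the receptors themselves. The coefficient falls with level in these libraries, from a median of 0.403 among genes at 10 to 20 CPM to 0.325 among genes at 50 to 100 CPM. *Dop2R* is left out by the filter. In a fit to the 9532 genes whose mean count reached 10 it had 0.953, against a median of 0.437 over all genes and 0.735 for *5-HT7*.

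**Figure D3:**
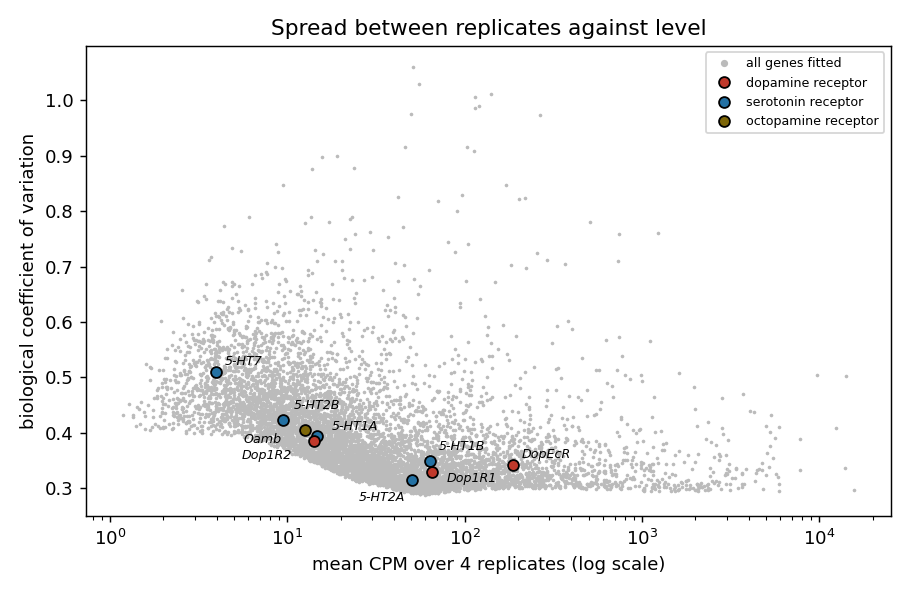
Biological coefficient of variation between replicates, drawn by edgeR toward the trend of all genes, against mean CPM (log scale). Shown are the 7754 genes that reached 10 counts in each of the 4. Grey points are all genes and coloured points are the 9 receptors that passed. These range from 0.510 at the low level of *5-HT7* to 0.315 for *5-HT2A*, with the most abundant, *DopEcR*, at 0.341.

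In the Ensembl annotation of dm6 the 10 genes are protein-coding and lie on 4 chromosome arms, 6 of them on 3R. On 3R are *Dop1R1* (14165379 to 14214810), *Dop1R2* (29630304 to 29659984), *5-HT2A* (4612870 to 4633304), *5-HT2B* (8578205 to 8629996), *5-HT7* (30968236 to 31016875) and *Oamb* (20689018 to 20714577). *DopEcR* lies on 3L (4367649 to 4380387) and *Dop2R* on X (20004680 to 20062706). The 5-HT1 genes are near each other on 2R, *5-HT1B* from 19022325 to 19032642 and *5-HT1A* from 19067155 to 19121958. They are 34512 bp apart with 3 protein-coding genes between them, and differ by 4.35-fold in level. None of the 10 shares exon sequence with another annotated gene on either strand. The genes span 10318 to 58027 bp. Of 5 properties set against mean level across the 10, gene span had a Spearman's rho of -0.60, exon length -0.32, the longest 3′ untranslated region -0.13, the number of transcripts -0.08 and the number of ends 0.34 (n = 10 genes measured in the same 4 libraries). The shortest genes, *5-HT1B*, *DopEcR* and *5-HT2A*, were among the 4 most abundant, and the remaining one, *Dop1R1*, spans 49432 bp.

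Each receptor has 1 or 2 transcript ends annotated in Ensembl release 115, and the counts are per gene, not per end. The annotation release behind the counts is not given here, and its exons and ends may differ. *Dop1R1* has 2 ends, with 3′ untranslated regions of 445 to 12541 nt, the longest among the 10. *Dop1R2*, *Dop2R* and *5-HT1A* have 1 end each. Which end the reads came from was not analysed here, and transcripts that end outside the annotated exons may be missing from a count.

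The other octopamine and tyramine receptors give the setting for *Oamb*. All 7 passed the minimum of 10 counts. *Octalpha2R*, which lowers cAMP, was the highest of all 17 monoamine receptors, with 150, 161, 393 and 115 CPM in replicates 1 to 4 and a mean of 205 ± 127 CPM (SD, n = 4). Replicate 3 stood far above the others, and the mean without it was 142 CPM, below the 171 CPM of *DopEcR* without the same replicate. *Octbeta1R*, *Octbeta2R* and *Octbeta3R*, which raise cAMP, had 70.1 ± 16.4, 24.6 ± 5.94 and 15.7 ± 4.28 CPM (SD, n = 4 each). *Oamb* was below these in mean level and ranked 11 of 17. Of the receptors that respond to tyramine, *Oct-TyrR* had 11.9 ± 2.70 CPM, *TyrR* 5.67 ± 2.29 CPM and *TyrRII* 3.77 ± 2.10 CPM (SD, n = 4 each).

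**Figure D4:**
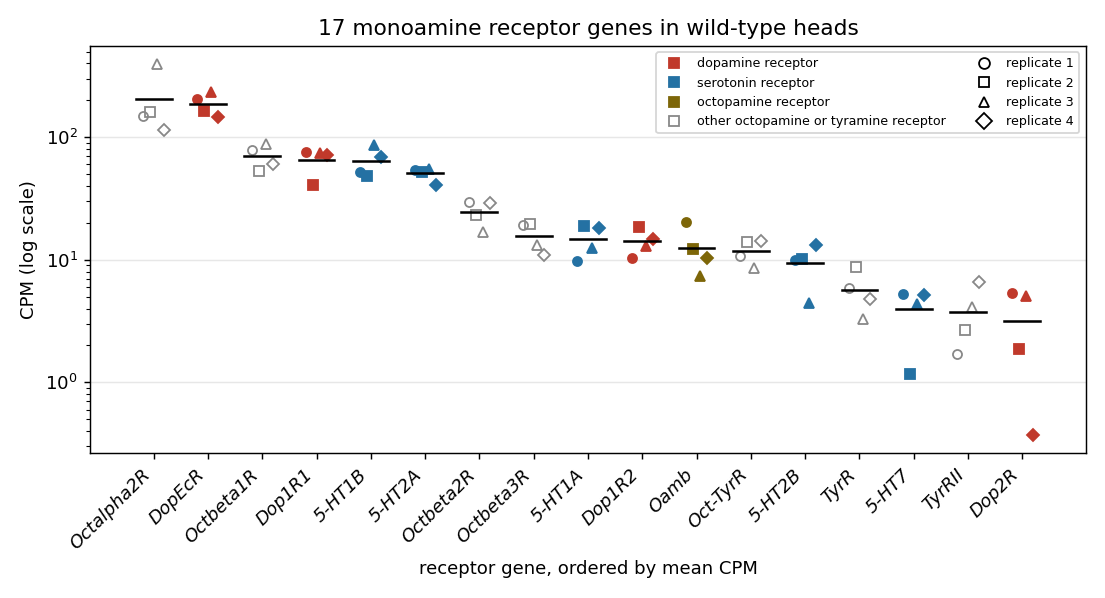
Level in CPM, on a log scale, of 17 monoamine receptor genes ordered by mean, with 1 point per replicate and a bar for the mean of 4. Filled points are the 10 dopamine, serotonin and octopamine receptors described here and open points are 7 further octopamine or tyramine receptors. *Octalpha2R* leads through its 393 CPM in replicate 3, *DopEcR* follows, and *Dop2R* is last.

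The mRNAs of the proteins that the receptors act on spanned a wide range of levels. All 9 genes of G protein subunits passed the filter, and their mean levels ran from 25.0 CPM for *Galphai*, which carries inhibition of cAMP synthesis, to 7757 CPM for *Ggamma30A*, a subunit enriched in the eye. *Galphas*, through which cAMP is raised, had 44.4, 13.6, 13.6 and 41.4 CPM in replicates 1 to 4, so that replicates 1 and 4 were high. *Galphao*, the main α subunit of neurons, had 497 ± 123 CPM (SD, n = 4), and *Galphaq*, which serves both calcium signalling and phototransduction, had 1773 ± 372 CPM. All 5 adenylyl cyclases passed as well, and summed to 178 ± 43.0 CPM (SD, n = 4). The highest was *Ac13E*, at 100.2 ± 25.7 CPM (SD, n = 4), and *rut*, the cyclase of the learning mutant rutabaga, had 20.7 ± 8.42 CPM. Among 7 effectors, *dnc*, the cAMP phosphodiesterase of the mutant dunce, had 220.3 ± 34.1 CPM and *Pka-C1*, the catalytic subunit of protein kinase A, had 169.7 ± 44.0 CPM (SD, n = 4 each). The kinases and the arrestin that silence active receptors, *Gprk1*, *Gprk2* and *krz*, had 44.2 ± 21.9, 23.7 ± 8.91 and 18.5 ± 6.69 CPM (SD, n = 4 each).

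The genes that make and carry the transmitters were within the range of the receptors. The vesicular monoamine transporter *Vmat*, common to all 3 transmitters, had 166 ± 58.4 CPM (SD, n = 4), the tyrosine hydroxylase *ple* of dopamine synthesis 34.7 ± 15.9 CPM, with 58.4 CPM in replicate 4 and 24.5 to 28.7 CPM in the others, and the neuronal tryptophan hydroxylase *Trhn* of serotonin synthesis 9.10 ± 2.39 CPM. Genes whose values over the 4 replicates were nearest to those of *DopEcR* were *Inx2*, *RhoGAPp190* and *trv*. Their root mean square differences from it, on the scale of log2(CPM + 0.5), were 0.07, 0.12 and 0.14 (n = 4), and 26 genes lay within 0.25.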

How the data were processed

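RNA was purified with TRIzol LS, after proteinase K treatment of centrifuged lysates of UV-cross-linked head powder. Libraries were made from 10 ng with the QuantSeq 3′ REV kit. The authors removed poly(A) stretches with fastp, aligned reads to dm6 with STAR 2.6.1b (introns disabled) and deposited raw, unnormalized counts per FlyBase gene ID from featureCounts. The strand setting and the handling of reads with several positions are not given in the sources used here.

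Symbols were matched for 13512 of 13608 IDs, and positions were taken from Ensembl release 115. CPM used the sum of each column. Intervals are 95% Wilson intervals. They cover counting error only, since reads carry no molecular identifiers. Ratios were computed with 0.5 added to counts before taking log2. Spread was fitted with edgeR 4.0.16 (TMM, intercept only) in R 4.3.3 on genes that reached 10 counts in each replicate, after the step had been tested on simulated data. Python 3.11.15, pandas 2.3.3 and scipy 1.17.1 were used otherwise. Alternatives were TMM, DESeq2 1.42.0 size factors, neuronal counts as the denominator, other minimums and leaving out each replicate. *Syx1A*, a listed neuronal gene, was not analysed here.

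The members, gene lists and rules were chosen with earlier results of these data known. Genes named were the 10 receptors, 7 further monoamine receptors, the 3 genes nearest to the most abundant receptor, and leading members of the signalling lists. *Galphas*, *Galphai* and *Galphao* were named after their values had been seen.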

Additional observations from a re-analysis of the deposited data

Results flagged for a closer look

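Over the receptors, their ratios, the signalling genes and the summed lists, 81 values were examined, many of which share genes. In 11 of them a replicate lay far from the other 3, meaning that its gap to the nearest exceeded Dixon's 95% critical share of the range for 4 values. Chance gives about 4.05 of 81. Among the 10 receptors *Dop1R1* was low in replicate 2, at 40.9 CPM against 72.1 to 75.8 CPM, with a gap over range of 0.894. This depended on scaling, since the gap over range was below the critical value with TMM, at 0.567, and with DESeq2 size factors, at 0.499. The sum of *Dop1R1*, *Dop1R2* and *5-HT7*, most of it *Dop1R1*, was low in the same replicate. It was 60.5 CPM there against 91.3 to 91.9 CPM, with a gap over range of 0.981. Without *Dop1R2*, which was highest there, the gap over range was 0.904. For sums, here and below, the gap over range was computed under library totals only. Whether the flag of this sum holds under other scalings was not tested, and that of *Dop1R1*, most of the sum, did not. The ratio of *5-HT7* to *Dop2R* was high in replicate 4, where *Dop2R* had 4 counts, with a gap over range of 0.853. *5-HT7*, low in replicate 2, had a gap over range of 0.785 under library totals, below the critical value, and 0.901 under TMM, above it.

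*Octalpha2R* was high in replicate 3, at 393 CPM against 115.4 to 161 CPM, with a gap over range of 0.834, only just past the critical value. It fell short with TMM, at 0.819, and with DESeq2 size factors, at 0.826. *Tbh*, the last enzyme of octopamine synthesis, was high in the same replicate, at 34.8 CPM against 12.9 to 15.2 CPM, with a gap over range of 0.897, and 0.867 with TMM. Both enzymes of dopamine synthesis were high in replicate 4. *ple* had 58.4 CPM there against 24.5 to 28.7 CPM, with a gap over range of 0.879, and *Ddc*, which also serves serotonin synthesis, had 101 CPM against 47.4 to 55.2 CPM, with a gap over range of 0.854. Neither passed with TMM, at 0.804 and 0.693, or with DESeq2 size factors, at 0.738 and 0.606. *Ac76E*, an adenylyl cyclase, was low in replicate 3, at 11.0 CPM against 22.7 to 24.3 CPM, with a gap over range of 0.886. It too fell short with TMM, at 0.765, and with DESeq2 size factors, at 0.721.

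The summed midgut genes were high in replicate 1, with a gap over range of 0.904. The summed effector genes were also high there, at 3766 CPM against 2904 to 2937 CPM, with a gap over range of 0.962. Most of that sum was *norpA*, the phospholipase C of the eye, at 2907 CPM in replicate 1 and 2194 to 2291 CPM in the others, with a gap over range of 0.864. With TMM the widest gap over range of *norpA* was 0.420, on its low side, and below the critical value.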

How the results depend on the processing

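The factors of TMM ran from 0.871 in replicate 3 to 1.13 in replicate 1. The summed level of the 10 receptors was 426 CPM, 430 with TMM, 428 with DESeq2 size factors and 437 with neuronal counts as the denominator (427 without *para*, tried after seeing the data), and 402 to 445 CPM with 1 replicate left out. Its coefficient of variation was 13.7%, 22.2%, 25.5% and 16.8% under the first 4 scalings. Each alternative scaling was set to about the same average level, so a mean over the 4 replicates could hardly change with it. That none of the 10 mean levels moved by more than 1 SD under another scaling is therefore no check of them. None moved by more than 1.5-fold when a replicate was left out, but a mean of 4 values can hardly move that far. Even *Dop2R*, at 0.375 to 5.36 CPM, moved by 1.30-fold at most, so this too is a weak check. Ratios within a replicate do not change with scaling, so scaling could alter the ordered neighbours only through the order of the means, which stayed the same. With 1 replicate left out the number of ordered neighbours stayed at 3, but not always the pairs. Without replicate 1, *Dop1R2* over *Oamb* took the place of *5-HT2B* over *5-HT7* and *5-HT1B* came next after *DopEcR*. Without replicate 4, *Oamb* over *5-HT2B* took its place and *Dop1R2* came next after *5-HT2A*. With replicate 4 left out, all 10 receptors passed the minimum of 10 counts and the mean of *Dop2R*, at 4.09 CPM, exceeded that of *5-HT7*, at 3.57 CPM. The ratio of dopamine to serotonin receptors stayed between 1.77 and 1.98, and the ratios of the 3 subfamily pairs stayed between 3.74 and 7.05, with 1 replicate left out, these last having been added after seeing the data. The median spread was 0.368 to 0.426 with 1 replicate left out, 0.418 with a minimum on the mean and 0.431 with genes of at least 1 count. Receptors near 4 CPM rest on as few as 4 to 72 counts per replicate, which limits *Dop2R* and *5-HT7* most. No paired analysis was possible because the replicates belong to a single condition.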
